A study of Mus musculus with 2 samples.

Results

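RNA levels of 38 genes for cyclins, cyclin-dependent kinases (CDKs), CDK inhibitors and their closest regulators were examined, out of 43346 genes quantified in G1E cells. The genes were taken by symbol from a given list, joined to the deposited gene tables through their Ensembl identifiers, and all 38 were present in both libraries. G1E is an immortalized mouse line labelled as an erythroid progenitor without Gata1, from a male of strain C57BL/6J at a postnatal stage. The line is known to come from gene-targeted embryonic stem cells, and it is a continuous culture of 1 line rather than tissue. Its total RNA, after removal of ribosomal RNA, was sequenced in 2 biological replicates. No treatment, time course or second genotype is labelled, so every value below describes 1 untreated group (n = 2), and the comparisons are between genes and between the libraries.

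Cyclins are the regulatory partners that switch CDKs on at set times in the division cycle. D cyclins with CDK4 or CDK6 open G1 by phosphorylating retinoblastoma proteins, cyclin E and cyclin A with CDK2 drive S phase, and cyclin A or B with CDK1 drives mitosis. INK4 proteins block CDK4 and CDK6, CIP/KIP proteins act on CDK2 complexes, WEE1 and PKMYT1 hold CDK1 inactive, and CDC25 phosphatases release it. Erythroid progenitors divide fast, and GATA1-driven maturation ends their divisions.

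Levels are deposited TPM, transcript abundances on a fixed total, which divide estimated reads by an effective transcript length and can be compared between genes. The libraries held 58094631 and 55274368 expected counts on genes in replicates 1 and 2, of which the 38 genes took 0.346% and 0.344%. Protein-coding nuclear genes took 83.0% and 80.1% of the counts on genes. They made up only 18.0% and 17.0% of the TPM, and other RNA took the rest of that scale. The label was checked on Gata1, which held 1862 and 1922 counts (7.06 and 7.13 TPM) in libraries labelled as lacking it. These are whole-gene counts and do not tell which part of the locus was read. All 8 erythroid progenitor markers were detected at 1 TPM or more, with summed levels of 325 and 290 TPM. The highest were Tfrc (106.5 ± 11.3 TPM) and Kit (88.5 ± 11.9 TPM), and the lowest Klf1 (9.63 ± 0.141 TPM) and Epor (2.74 ± 0.707 TPM). Among markers of other cells, 2 of 4 mast cell genes were detected (sum 117 and 101 TPM, nearly all of it Cpa3, with Mcpt8 at 0), and 2 of 4 megakaryocyte genes (sum 18.7 and 19.8 TPM, with Gp1bb at 0). None of 4 granulocyte and macrophage, 4 lymphoid and 3 fibroblast markers reached 1 TPM.

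Genes that peak in S phase or mitosis are known to share short promoter motifs, so the starts of the members were searched for 3 of these. The RefSeq promoter table for GRCm38.p6 held 32 windows for 28 of the 38 genes, each running from 250 bases before to 50 after a transcription start. Ccna2, Ccnd1, Ccnd2, Ccne2, Ccnh, Cdk5, Cdkn1c, Cdc25c, Wee1 and Pkmyt1 had no window there and were not searched. The motifs were the cell cycle genes homology region, CHR (TTTGAA or TTCGAA), the CCAAT box that binds NF-Y (CCAAT), and an E2F site (TTTCCCGC, TTTCGCGC, TTTGCCGC or TTTGGCGC), on both strands. Positions below count from the start, with -1 as the base just before it. The 5 windows shown are 4 of those that hold both CHR and CCAAT letters at the start carrying most of a gene's RNA, and 1 of an undetected gene that holds E2F letters. Windows of Ccnf, Cdkn3 and Cdc25b, at lower levels than those 4 genes, also hold both at such a start and are not shown. Only the 250 bases before the start are printed, 5′ to 3′ on the strand of the gene, and capitals mark every match of the 3 motifs on either strand.

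Cdk1: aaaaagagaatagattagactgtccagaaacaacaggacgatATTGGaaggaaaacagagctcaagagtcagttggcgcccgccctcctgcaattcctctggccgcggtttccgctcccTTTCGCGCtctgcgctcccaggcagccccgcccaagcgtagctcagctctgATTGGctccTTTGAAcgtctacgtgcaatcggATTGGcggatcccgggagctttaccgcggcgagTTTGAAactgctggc
Ccnb2: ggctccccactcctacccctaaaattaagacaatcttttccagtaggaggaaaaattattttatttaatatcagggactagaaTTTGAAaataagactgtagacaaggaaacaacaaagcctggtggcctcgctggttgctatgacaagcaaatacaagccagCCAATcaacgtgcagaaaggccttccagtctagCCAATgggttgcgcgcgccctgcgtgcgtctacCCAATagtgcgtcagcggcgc
Cks1b: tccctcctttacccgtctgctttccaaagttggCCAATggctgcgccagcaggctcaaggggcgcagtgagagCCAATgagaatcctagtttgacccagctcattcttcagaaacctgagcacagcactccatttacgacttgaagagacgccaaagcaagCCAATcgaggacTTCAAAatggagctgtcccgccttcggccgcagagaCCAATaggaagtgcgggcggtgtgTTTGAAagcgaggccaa
Cdc20: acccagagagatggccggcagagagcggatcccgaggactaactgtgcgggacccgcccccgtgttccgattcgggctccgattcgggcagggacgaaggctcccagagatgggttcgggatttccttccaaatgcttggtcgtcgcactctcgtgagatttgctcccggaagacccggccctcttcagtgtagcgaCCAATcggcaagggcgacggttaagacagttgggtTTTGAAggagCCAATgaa
Cdkn2a, start of transcript Cdkn2a-202: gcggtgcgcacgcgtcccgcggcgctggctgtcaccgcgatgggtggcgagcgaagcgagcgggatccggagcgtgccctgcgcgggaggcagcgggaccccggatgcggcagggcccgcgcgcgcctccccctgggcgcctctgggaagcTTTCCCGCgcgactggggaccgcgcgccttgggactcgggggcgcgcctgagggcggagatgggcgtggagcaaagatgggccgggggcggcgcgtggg

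The Cdk1 stretch (chr10:69352913-69353162, minus strand) held CHR matches at -71 and -15, CCAAT at -208, -80 and -48, and E2F letters at -131. Transcripts that begin there carried 95.2% and 97.6% of the TPM of Cdk1. In Ccnb2 (chr9:70421555-70421804, minus strand) 3 CCAAT matches stood at -87, -54 and -21 with CHR letters at -167, and a further CHR match at 5, past the printed part. Cks1b (chr3:89418292-89418541, minus strand) held CHR at -77 and -17 and 4 CCAAT matches. Cdc20 (chr4:118437344-118437593, minus strand) held CHR at -18 and CCAAT at -53 and -8. The Cdkn2a stretch (chr4:89294620-89294869, minus strand) lies before the first exon of the ARF transcript and held E2F letters at -99, in a gene with 2 and 0 counts.

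Over all members, CCAAT letters were found in 21 of 32 windows (65.6%), against 37.4% of all 32851 windows in the table. CHR letters were in 9 windows (28.1%, against 19.2%), both motifs in 8 (25.0%, against 7.5%), and E2F letters in 4 (12.5%, against 2.3%), those of Cdk1, Cdk2, Cdc25a and Cdkn2a. No match of one motif overlapped another in the members' windows. Among members with a window, those with both CHR and CCAAT letters were Ccnb2, Ccnf, Cdc20, Cdc25b, Cdk1, Cdkn3, Cks1b and Skp2. They ranged from 2.40 TPM (Cdc25b) to 46.6 TPM (Cdk1). The Skp2 window concerned starts transcripts with 0.17% and 0% of that gene's TPM. Windows of Ccne1, Ccng2, Cdk4, Cdk6, Cdk7 and Cdk8 held none of the 3. That of Ccng2 starts transcripts with 3.28% and 2.70% of its TPM, and that of Cdk4 transcripts with 27.4% and 19.6%. These are letter matches in fixed windows, without binding data.

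A gene was called detected where each library gave it 1 TPM or more. In bulk RNA, fewer cells that express a gene and less RNA per cell cannot be told apart. By this rule 33 of 38 members (86.8%) were detected, against 21.0% of all genes and 38.7% of the 21461 nuclear protein-coding genes. The median of all 38 members, detected or not, was 9.98 ± 0.318 TPM (SD of the library medians). That of all nuclear protein-coding genes, most of them undetected, was 0.055 TPM. Among detected genes alone the medians were closer, 12.5 ± 2.31 TPM for members and 7.0 TPM for nuclear protein-coding genes. A total of 19 members were at 10 TPM or more and 14 between 1 and 10. The undetected members were Ccna1, Ccnd1, Cdkn1c, Cdkn2a and Cdkn2b, and a wide gap separated them from the rest: the lowest detected member, Pkmyt1, stood at 1.85 TPM and the highest undetected one, Cdkn2b, at 0.055.

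**Figure D1:**
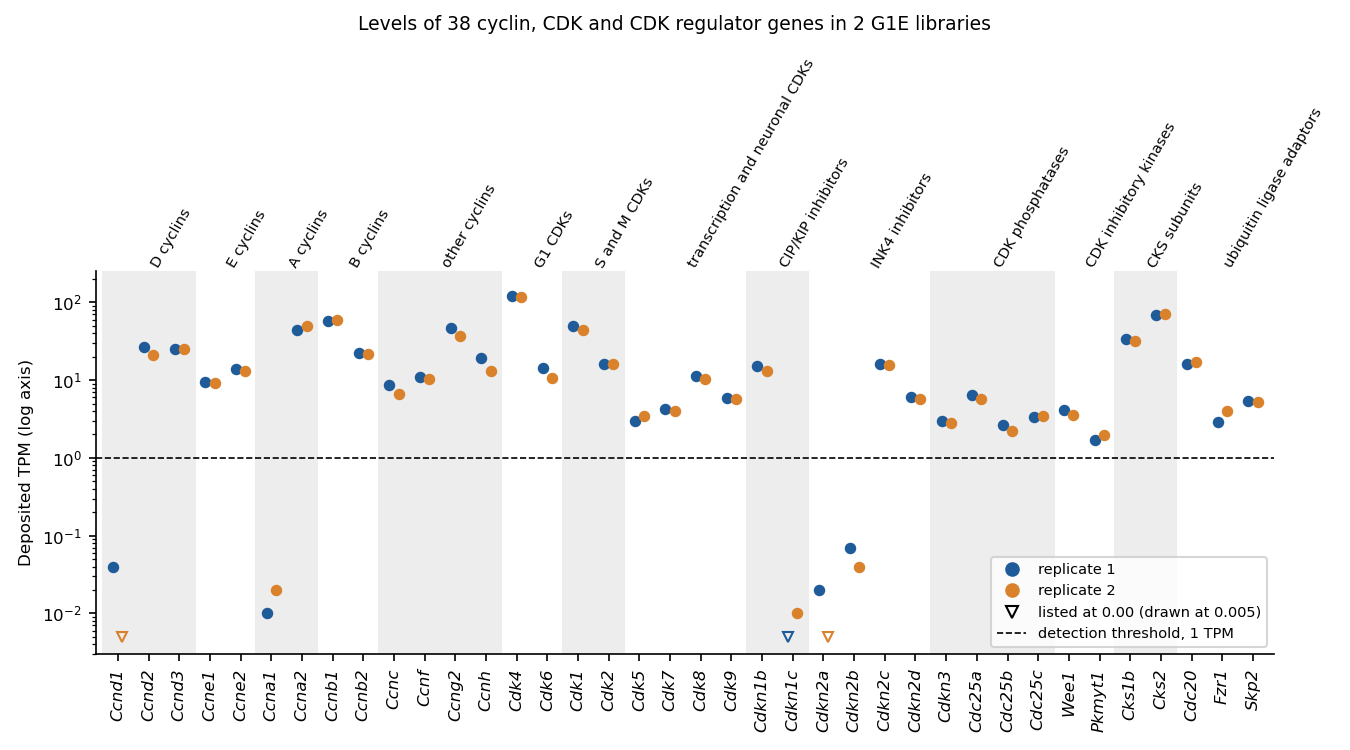
Deposited TPM (log axis) of the 38 genes, grouped by family along the x axis, with 1 point per library and open triangles for values listed at 0. All points of 33 genes lie above the dashed line at 1 TPM, and those of the other 5 lie at 0.07 or below.

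An exact two-sided test over 2 libraries cannot go below p = 0.5, so no ratio between genes was tested for significance. A ratio was instead read against the replicate error of genes of like level: it had to keep its sign in both libraries and exceed 4.3 times the pooled replicate SD of log2 TPM, taken for the gene of the pair with the larger SD. The factor is that of a 95% interval of t with 2 degrees of freedom, and 1 such SD is the error of a ratio of 2 genes averaged over 2 libraries. That SD was 0.19 at 1 to 10 TPM (5230 genes), 0.17 at 10 to 100 TPM (2816 genes) and 0.23 above 100 TPM (257 genes), which gives limits of 0.81, 0.72 and 0.99. Of 19 pairs of paralogs or partners, 14 had both genes detected, and 10 of these were past the limit. The pairs Ccnd3 with Ccnd2, Ccne1 with Ccne2, Cdc25b with Cdc25c and Cdk8 with Ccnc were not.

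The D cyclins, which bind CDK4 and CDK6, were carried by 2 of 3 genes at like levels. Ccnd2 stood at 26.7 TPM in replicate 1 and 20.9 in replicate 2, and Ccnd3 at 24.8 in both. Their log2 ratio (Ccnd3 over Ccnd2) was 0.07 ± 0.25, so the order of the pair changed between the libraries. Ccnd1 (chromosome 7, 144929931 to 144939925, minus strand) had 26 counts in replicate 1 and 2 in replicate 2, or 0.04 and 0.00 TPM. A level of 3 counts would be 0.00504 and 0.00496 TPM, so replicate 2 lay below that floor and replicate 1 above it. The gene LTO1, on the other strand, overlaps Ccnd1 over 1100 exon bases and held 1214 and 1105 counts.

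Most RNA of Ccnd3 began at its inner start. Transcripts that begin at the window of chr17:47593217-47593516 carried 81.1% and 77.7% of its TPM, and those at the outer start (window chr17:47504801-47505100) 5.48% and 3.30%. The leading transcript, Ccnd3-205 (1977 nt), held 76.7% and 73.0% of 21 listed.

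The E cyclins, which activate CDK2 at the entry into S phase, were both present. Ccne1 stood at 9.44 and 9.23 TPM and Ccne2 at 13.9 and 13.1 TPM, which gave a log2 ratio of -0.53 ± 0.04. Ccne2 was higher in both libraries, but the ratio stayed within the limit of 0.81.

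Cyclin A was Ccna2 alone. This S phase and mitotic cyclin stood at 43.8 and 50.2 TPM, among the higher levels of the set, and its germline paralog Ccna1 at 0.01 and 0.02 TPM with 2 and 5 counts. Ccnb1, the main mitotic cyclin, stood at 57.7 and 59.2 TPM, and Ccnb2 at 22.1 and 21.5. Ccnb1 was the higher in both libraries, by a log2 ratio of 1.42 ± 0.06, and held 72.8 ± 0.771% of the B cyclin RNA. Summed B cyclins exceeded summed A cyclins 1.71 ± 0.153 times, and summed D cyclins exceeded summed E cyclins 2.13 ± 0.116 times.

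Among the remaining cyclins of the 38 genes, Ccng2, an unconventional cyclin known from arrested cells, was the highest at 46.5 and 37.4 TPM. Ccnf, whose protein is an adaptor of an SCF ubiquitin ligase, stood at 10.9 and 10.4 TPM. Ccnc, the partner of CDK8 in the Mediator complex, stood at 8.54 and 6.66 TPM. Ccnh, the partner of CDK7, differed most between libraries among the detected cyclin members, at 19.0 and 12.9 TPM. Its retained-intron transcript of 297 nt, Ccnh-206, took 20.3% of its TPM in replicate 1 and 7.24% in replicate 2, on 61.0 and 17.9 counts.

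**Figure D2:**
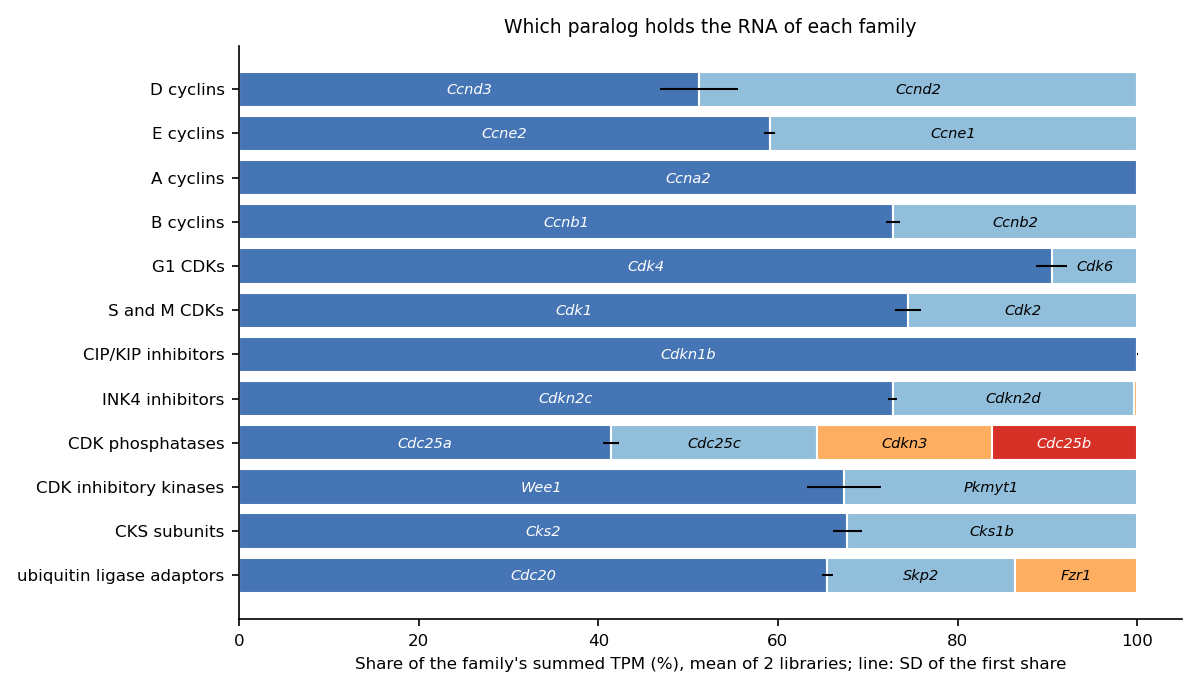
Share of each family's summed TPM held by each gene (x axis, percent, mean of 2 libraries), with a line for the SD of the largest share. Ccnd3 and Ccnd2 divide the D cyclins almost evenly, whereas Cdk4 holds 90.5% of its pair in deposited TPM (71.7% with coding transcripts alone), and Ccna2 and Cdkn1b hold all but a trace of the pairs drawn, which leave out Cdkn1a.

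Cdk4 (ENSMUSG00000006728.8, chromosome 10, 127063534 to 127067920, plus strand, mm10) was the highest member in deposited TPM, at 120 and 117 TPM (118 ± 1.68). Its partner paralog Cdk6 stood at 14.4 and 10.6 TPM, and the log2 ratio was 3.26 ± 0.29, past the limit of 0.99. The size of that ratio moved with the transcripts counted for Cdk4 and with the lengths given to both genes. Cdk4-209, a 468-nt transcript annotated as a retained intron (chromosome 10, 127066076 to 127067235), took 49.9% and 48.3% of the gene's TPM but 14.8% and 16.2% of its counts. Of its bases, 94.7% also lie in exons of the coding transcript Cdk4-201, which held 27.4% and 19.6% of the TPM. With coding transcripts alone the log2 ratio of Cdk4 over Cdk6 fell to 1.34, still past its limit, and the share of Cdk4 in the pair went from 90.5% to 71.7%. A further setting, called M21 lengths below, divided a gene's counts by the length of its leading coding transcript in GENCODE M21, a later annotation. For Cdk6 the leading Cdk6-202 is 11525 nt there instead of 3735 nt. For Cdk4 the leading coding Cdk4-201 is 2053 nt in both annotations, and it replaced deposited gene lengths of 1079 and 1018 nt. With both changes the ratio was 3.91 and the share 93.7%. The M21 lengths divide reads that were assigned on the earlier models. Cdk4 itself was at 31.6 ± 5.94 TPM with coding transcripts alone, below Cks2, Ccnb1, Ccna2, Ccng2 and Cks1b, and at 54.2 ± 2.99 TPM with M21 lengths, below Cks2. Tspan31 overlaps Cdk4 on the other strand over 641 exon bases and held 2750 and 3099 counts against 17496 and 16508 for Cdk4.

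Cdk1 (ENSMUSG00000019942.8, chromosome 10, 69335146 to 69352938, minus strand), the mitotic kinase, stood at 49.1 and 44.1 TPM and Cdk2, the S phase kinase, at 16.0 and 15.9. The log2 ratio of 1.54 ± 0.11 was past the limit of 0.72. Here too a short transcript mattered. Cdk1-204, of 475 nt and annotated as a retained intron, took 45.7% and 41.0% of the gene's TPM but 16.0% and 13.4% of its counts, and 86.7% of its bases lie in exons of the coding Cdk1-202 (1253 nt, 43.7% and 48.1% of TPM). With coding transcripts alone the ratio was 0.67, no longer past its limit. In plain counts Cdk1 held 6229 and 6505 and Cdk2 5767 and 5894, and with M21 lengths the log2 ratio was 1.08. For Cdk1 that setting replaced deposited gene lengths of 963 and 1058 nt by the 1253 nt of Cdk1-202, the same in both annotations. Cdk1 was the higher in each of these readings, while the size of the ratio depended on transcript length.

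Cdk5, best known from neurons, was detected at 3.02 and 3.48 TPM, while both of its listed neuronal activators, Cdk5r1 and Cdk5r2, were undetected. The transcription kinases were present at moderate levels: Cdk8 of the Mediator at 11.2 and 10.2 TPM, Cdk9 of the elongation factor P-TEFb at 5.86 and 5.65, and Cdk7 of TFIIH at 4.21 and 3.99. Cdk8 and its cyclin Ccnc differed by a log2 ratio of 0.50 ± 0.16, within the limit of 0.81.

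The pair of CDK7 and its cyclin was the one whose direction turned on the gene model. In deposited TPM Cdk7 was lower than Ccnh by a log2 ratio of -1.94 ± 0.34. The deposited tables give the only Cdk7 transcript 7595 nt, and GENCODE M21 gives the same transcript 1988 nt. When the counts were divided by the M21 length of the leading coding transcript, the ratio turned to 0.60, and by counts alone Cdk7 (5252 and 5036) was above Ccnh (3789 and 3236). Rasa1, which overlaps Ccnh on the other strand, held 20951 and 16422 counts, with 12 exon bases in common.

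**Figure D3:**
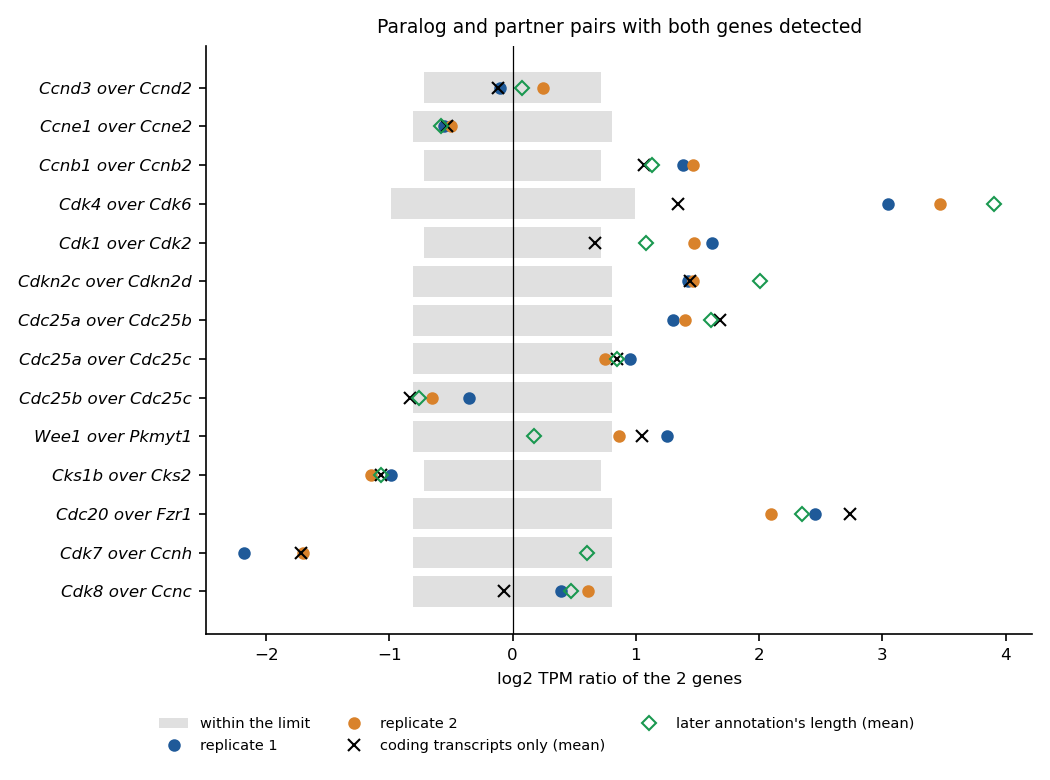
Log2 TPM ratios (x axis) of the 14 pairs with both genes detected, 1 point per library, with each pair's limit for deposited TPM in grey. Crosses give mean ratios from coding transcripts alone, and diamonds those from the later annotated length of each gene's leading coding transcript. The diamond of Cdk7 over Ccnh lies at 0.60, on the other side of 0 from its points, and the cross of Cdk1 over Cdk2 lies at 0.67, inside the grey.

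Of the 6 CDK inhibitor genes among the members, Cdkn1b, Cdkn2c and Cdkn2d held nearly all the RNA. The CIP/KIP gene Cdkn1a (p21) is not a member, and it was detected at a mean of 3.175 TPM, a value looked up after the others were seen. Cdkn1b (p27), the CIP/KIP member that restrains CDK2, stood at 15.4 and 13.0 TPM, and its relative Cdkn1c (p57) held 1 and 3 counts. Of the INK4 genes, Cdkn2c (p18) stood at 16.1 and 15.8 TPM and Cdkn2d (p19) at 6.02 and 5.75, which gave a log2 ratio of 1.44 ± 0.03, past the limit of 0.81. Cdkn2c held 72.8 ± 0.507% of INK4 RNA. Summed Cdk4 and Cdk6 exceeded the summed INK4 genes 5.98 ± 0.0828 times in deposited TPM, 2.01 times with coding transcripts alone and 1.94 times with M21 lengths.

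Cdkn2c has a long and a short transcript from different starts. The short form, Cdkn2c-201 (1106 nt), held 71.9% and 61.2% of its TPM, or 11.6 and 9.67 TPM, and begins at the lower-coordinate start (window chr4:109665323-109665622). Cdkn2c-202 (2471 nt) held 28.1% and 38.8%. The short form led in both libraries.

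Cdkn2a and Cdkn2b, adjacent genes for INK4 proteins whose locus also encodes ARF, were close to 0 together. Cdkn2a (ENSMUSG00000044303.6, chromosome 4, 89274471 to 89294653, minus strand) had 2 counts in replicate 1 and 0 in replicate 2, and Cdkn2b (89306299 to 89311039) 13 and 8. For 0 counts a floor of 3 counts was used, or 0.0258 TPM for Cdkn2a in replicate 2. The deposited upper bound of its TPM there was higher, at 0.0404. Their neighbour within 300 kb, Mtap, an enzyme of methionine salvage that many cell types express, was also undetected at 15 and 3 counts. The nearest detected protein-coding gene on the lower side was Klhl9, 0.55 Mb from Cdkn2a at 21.2 and 16.6 TPM, with 23 undetected genes between that reached at most 15 counts. On the higher side it was Gm12666, 2.88 Mb from Cdkn2b at 3.04 and 3.26 TPM, with 4 undetected genes between that reached at most 16 counts. These flanking genes were chosen after their values were seen.

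The other undetected members had detected genes near them. Near Cdkn1c 2 of 9 protein-coding genes within 300 kb were detected, Nap1l4 at 22.8 ± 1.88 TPM and Cars at 7.78 and 5.75 TPM. Near Ccna1 it was 3 of 8, Rfxap (10.1 ± 0.0212 TPM), Alg5 (3.84 ± 0.099) and Spg20 (3.39 ± 0.495). Near Ccnd1 it was 3 of 6, LTO1 (5.80 and 4.24 TPM), Fgf15 (6.06 and 5.18) and Fgf3 (1.16 and 1.79). Fgf15 and Fgf3 encode growth factors, and Fgf4 between them was at 1 and 0 counts.

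The CDC25 phosphatases, which remove inhibitory phosphates from CDKs, were led by Cdc25a. It stood at 6.47 and 5.79 TPM, above Cdc25b at 2.62 and 2.19 (log2 ratio 1.35 ± 0.07) and Cdc25c at 3.35 and 3.44 (0.85 ± 0.14, just past the limit of 0.81). The second ratio, 0.95 in replicate 1 and 0.75 in replicate 2, was not past the wider limit that applies to a lone library, nor past the limit from coding transcripts alone. Cdc25b and Cdc25c differed by -0.50 ± 0.21, within the limit. Cdkn3, a phosphatase that removes the activating phosphate of CDK2, stood at 2.97 and 2.78 TPM on 281 and 275 counts. Against the CDC25 genes stood Wee1 at 4.08 and 3.60 TPM and Pkmyt1 at 1.72 and 1.98, the 2 kinases that place the inhibitory phosphates. Their log2 ratio was 1.05 ± 0.27, past the limit, though replicate 2 alone, at 0.86, was not past the wider limit of a lone library. It was 0.17 with M21 lengths, in which Wee1 is 3419 nt instead of 1941 nt. The 4 phosphatase genes summed to 2.60 ± 0.0793 times the 2 kinases in deposited TPM, 2.52 times with coding transcripts alone and 3.52 times with M21 lengths. That sum includes Cdkn3, which acts on the activating phosphate, so it is not a ratio of CDC25 genes to the kinases alone.

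The CKS proteins, small subunits that bind CDKs and help them reach phosphorylated substrates, were among the highest. Cks2 stood at 68.0 and 70.0 TPM and Cks1b, which also helps SKP2 recognise p27, at 34.1 and 31.6. The log2 ratio of Cks1b over Cks2 was -1.07 ± 0.11, past the limit of 0.72, and Cks2 was the higher in both libraries. Replicate 1 alone, at -0.99, was within the wider limit of a lone library. Both genes are nearly free of other transcripts: Cks1b-201 held 99.6% and 99.5% of its gene, and Cks2 has 1 listed transcript.

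The adaptors that direct ubiquitin ligases were also unequal. Cdc20, which activates the anaphase-promoting complex (APC/C) in mitosis, stood at 16.0 and 17.0 TPM, and Fzr1 (CDH1), which activates it in late mitosis and G1, at 2.93 and 3.95. Their log2 ratio was 2.27 ± 0.24, past the limit of 0.81. Skp2, the SCF adaptor that targets p27, stood at 5.32 and 5.18 TPM. Elovl1 overlaps Cdc20 on the other strand over 53 exon bases with 3861 and 4420 counts, close to those of Cdc20 itself (4102 and 4225).

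The libraries gave like values for the set. After the median shift between libraries (-0.14 on the log2 scale) was removed, 0 of 33 detected members differed by more than 1.5-fold, where 3.05% of 8303 detected nuclear protein-coding genes did. No test lies behind this fold. Fzr1 was the farthest, 1.48-fold higher in replicate 2, though its coding transcripts alone stood at 2.18 and 2.27 TPM in replicates 1 and 2. Ccnh was the lowest at -0.42 on the log2 scale. The median size of the difference was 0.11 for members and 0.15 for all detected protein-coding genes, with 23 members above and 10 below the common shift. Without a threshold of 1 TPM but with at least 10 counts over both libraries, Ccnd1 and Cdkn2b were past 1.5-fold as well, on 26 and 2 counts and on 13 and 8 counts, where 21.2% of 13174 genes were.

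**Figure D4:**
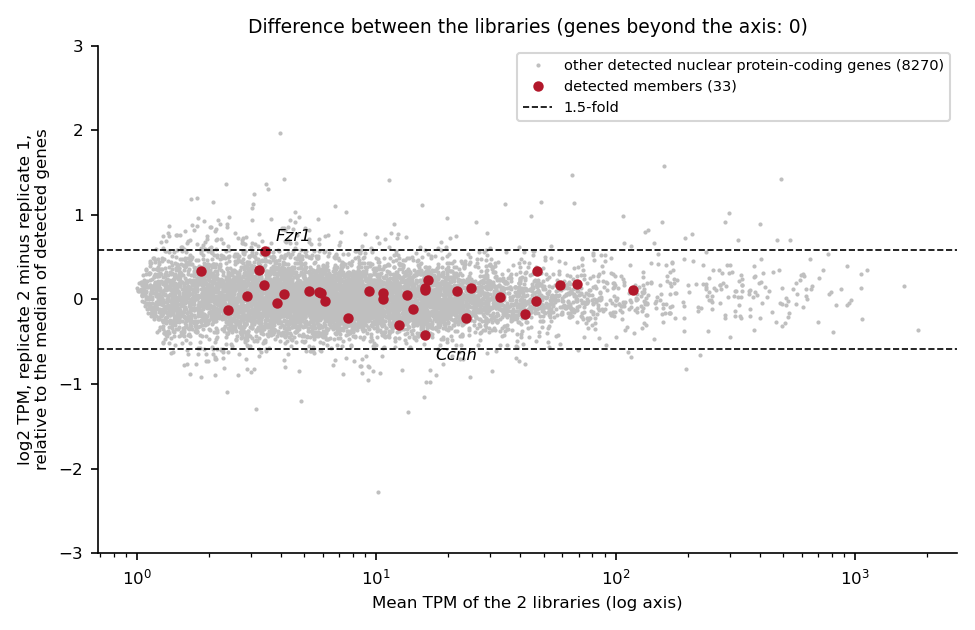
Log2 TPM difference between the libraries relative to the median of detected genes (y axis) against mean TPM (x axis, log), with the 33 detected members in red over all other detected nuclear protein-coding genes in grey. Every red point lies between the dashed lines at 1.5-fold, with Fzr1 at 0.57 and Ccnh at -0.42.

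Transcript use was read from the deposited isoform percentages, the share of a gene's TPM in each transcript. A total of 12 detected members had 1 listed transcript and 21 had more. In 19 of these 21 the same transcript led in both libraries, and in 18 it was coding. The exception with a steady leader was Cdk4, whose leader was the retained-intron form described above. The leaders that changed were those of Cdk1 and Cdk2: Cdk2-201 held 56.3% and 48.2% of Cdk2, and the longer coding Cdk2-202 the rest. The median coding share of the 21 genes was 90.6%.

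Retained-intron transcripts held over 20% of the TPM in 5 members: Cdk4 (61.2 ± 0.693%), Cdk1 (45.2 ± 3.50%), Cdk8 (32.9 ± 0.0354%), Fzr1 (22.4 ± 6.43%) and Ccnb1 (21.8 ± 0.891%). Cdk8-203 is 1976 nt long and held 31.1% and 30.2% of the TPM and 24.3% and 23.9% of the counts of Cdk8, so its 2 shares were close to each other. For Ccnb1 the shares were farther apart. Its 751-nt Ccnb1-203 held 12.0% and 11.2% of the TPM but 3.4% and 3.4% of the counts. The 1075-nt Ccnb1-204 held 5.10% and 5.58% of the TPM but 2.3% and 2.7% of the counts. Fzr1 and Cdk9 were less steady. The retained-intron Cdk9-207 held 17.4% of Cdk9 in replicate 1 and 0.94% in replicate 2, on 87.6 and 4.78 counts.

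**Figure D5:**
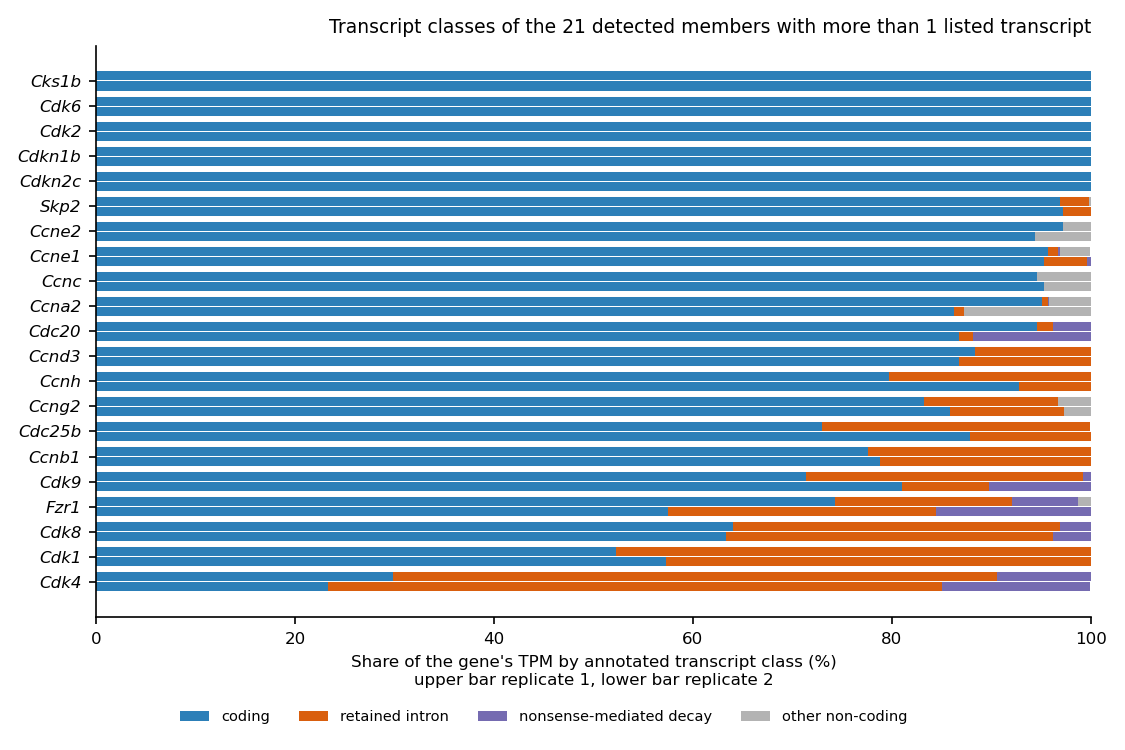
Share of each gene's TPM by annotated transcript class (x axis, percent), with replicate 1 above replicate 2, for the 21 detected members with more than 1 listed transcript. Cdk4 and Cdk1 have the largest retained-intron shares, 61.2% and 45.2%, and 5 genes near the top are all coding.

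Which strand the counting used is not stated, so members with a gene on the other strand stay uncertain. For 12 members a gene on the other strand held at least 10% of the member's counts. Besides LTO1, Tspan31, Rasa1 and Elovl1, these were Exosc9 (Ccna2), Tstd3 (Ccnc), Bysl (Ccnd3), Ints8 (Ccne2), Spef1 (Cdc25b), Paqr4 (Pkmyt1), Mfsd12 (Fzr1) and Lmbrd2 (Skp2). The shared exon length ran from 0 bases for Lmbrd2 to 1100 for LTO1. In 11 of the 12 pairs the expected counts of both genes were whole numbers in both libraries (within 0.005), which shows no read divided between the 2 genes but not which strand decided it.

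The machinery around these genes was also read from 4 fixed lists. The APC/C and SCF ligase list, which degrades cyclins and inhibitors, had 25 of 25 genes detected at a median of 20.2 ± 2.67 TPM, led by Skp1a (48.9 ± 5.44) and the E2 enzyme Ube2s (47.1 ± 1.47), with Btrc lowest (1.44 ± 0.0707). Of genes that control mitotic entry, 14 of 14 were detected at a median of 12.2 ± 1.34 TPM, from the phosphatase Ppp1ca (97.3 ± 7.80) and the 14-3-3 gene Ywhaz (72.2 ± 6.31) down to the PP2A subunit Ppp2r2a (2.66 and 2.45 TPM). The Mediator kinase and P-TEFb list had 13 of 14 detected, with a median over all 14 of 4.5 ± 0.753 TPM, led by Larp7 (16.6 ± 3.45) and Aff4 (13.7 ± 3.10), with Med12l at 0.02 ± 0.0141. Of other cyclins and kinases 17 of 26 were detected, with a median over all 26 of 5.47 ± 0.392 TPM. Ccni (49.5 ± 4.92) and Ccng1 (49.4 ± 6.61) were the highest, and Ccnb3 and Ccno were listed at 0. The medians cover every gene of a list, detected or not, and can be set beside the 0.055 TPM of all nuclear protein-coding genes, and the shares detected beside their 38.7%. Among detected genes alone, the median was 4.54 TPM for the Mediator kinase and P-TEFb list and 9.83 TPM for other cyclins and kinases. The other lists, with every gene detected, keep theirs. That of detected nuclear protein-coding genes was 7.0 TPM.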

How the data were processed

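Each of the 2 G1E libraries has a gene table and a transcript table from the authors, made from 100 ng of rRNA-depleted total RNA with a ScriptSeq kit and a size range of 200 to 1000 nt, per the labels' protocols. The deposited expected counts estimate how many reads belong to a feature and need not be whole. The deposited TPM values divide these by an effective length, and the deposited isoform percent is a transcript's share of its gene, per the file headers. Per the deposited read-me texts, the build is mm10 and the annotation GENCODE M4. No aligner, quantifier or counting strand is given in these sources.

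Symbols, types and coordinates came from GENCODE M21 on the same build, matched by Ensembl identifier for 42462 of 43346 genes and all 149 transcripts of the members. Promoter sequences are RefSeq's for GRCm38.p6. The members and lists were chosen with earlier results of these data known. All 38 members are named, with the 2 highest genes and the lowest of each list, protein-coding neighbours within 300 kb of undetected members, and opposite-strand genes with at least 10% of a member's counts. Expected counts were rounded for TMM factors (edgeR 4.0.16) and size factors (DESeq2 1.42.0) in R 4.3.3, used for scaling only. Other steps used Python 3.11.15, numpy 2.4.6, pandas 2.3.3 and matplotlib 3.10.9. Scripts were tested on simulated data. No member had a posterior SD of its count above 0.05 of the posterior mean, the mark used for reads shared with other genes. Floors of 3 counts cover counting error only, as the reads carry no molecular identifiers. Values are mean ± SD (n = 2), and the replicates are labelled biological replicates of 1 line.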

Additional observations from a re-analysis of the deposited data

How the results depend on the processing

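The count of detected members was 33 at 0.5 TPM, and with rescaled or posterior mean TPM, coding transcripts only, M21 lengths or either library alone, and it was 25 at 5 TPM. The count past 1.5-fold was 0 without centring, with TMM or DESeq2 scaling, with a pseudocount of 1 TPM and at 2-fold, and 2 among genes with at least 10 counts. Pairs past the limit numbered 8 to 10 over all alternatives, and 8 with either library left out. The median member stood at 8.06 TPM with coding transcripts only and at 8.27 TPM with M21 lengths, an alternative chosen after seeing the data, against 9.98 in the main analysis, and at 9.71 to 10.15 with a library left out. The M21 setting divides all reads of a gene, assigned on M4 models, by the length of its leading coding transcript. Its values can therefore move even where both annotations give that transcript the same length. Ratios that turned sign were Ccnd3 over Ccnd2 (-1.71 by CPM without length, -0.12 with coding transcripts only, and -0.10 to 0.25 with a library left out), Cdk7 over Ccnh (0.55 by CPM, 0.60 with M21 lengths) and Cdk8 over Ccnc (-0.07 with coding transcripts only). Ratios that lost the call were Cdk1 over Cdk2 (0.13 by CPM, 0.67 coding only), Cdc25a over Cdc25c (0.85 coding only, 0.75 to 0.95 for a lone library), Wee1 over Pkmyt1 (0.17 with M21 lengths, 0.86 without replicate 1) and Cks1b over Cks2 (-0.99 without replicate 2). Ratios that gained one were Ccnd3 over Ccnd2 (by CPM, as above, in the other direction), Ccne1 over Ccne2 (-1.17 by CPM) and Cdc25b over Cdc25c (-0.76 with M21 lengths). A pseudocount, posterior mean TPM or an SD over all detected genes changed no call among the 14 pairs. The leading transcript was the same in 18 of 21 members by posterior mean shares. Precision is limited by 2 libraries and, for Cdkn2a, Cdkn1c and Ccna1, by 5 counts or fewer.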
